A study of Mus musculus with 2 samples.

Results

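The Slc25 family holds the mitochondrial carriers, and its genes were taken as all entries of the gene table whose symbol is Slc25a followed by a number. This gave 40 of 13381 genes, each with its level in 2 brain libraries, here called the miR-7KD-titled and the WT-titled library. The reference names 47 genes of this pattern, and Slc25a2, Slc25a21, Slc25a31, Slc25a41, Slc25a43, Slc25a48 and Slc25a54 had no entry and were not analysed here. Levels are FPKM, fragment numbers scaled to transcript length in kilobases and to the mapped fragments of the library, so that levels of different genes may be compared per length. Where a pair of values is given, the miR-7KD-titled library comes first.

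Mitochondrial carriers are small proteins of the inner mitochondrial membrane that exchange or co-transport metabolites, nucleotides and cofactors between the cytosol and the matrix. ADP/ATP translocases and the phosphate carrier supply the ATP synthase, and the aspartate/glutamate and oxoglutarate carriers run the malate-aspartate shuttle that brings the reducing power of cytosolic NADH into mitochondria. In brain, neurons depend on these carriers for ATP and for the turnover of glutamate.

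The study set wild-type mice against miR-7 deficiency mice (miR-7def) in lipopolysaccharide (LPS)-induced brain inflammation, to ask which brain RNAs differ when the microRNA miR-7 is reduced. Both libraries came from C57BL/6J brain, with ages given as 6 to 8 weeks in the labels and 8 to 10 weeks in the methods. Per the methods, mice of both genotypes received LPS intraperitoneally at 2.5 mg/kg and brains were taken after 12 h; the labels do not name LPS, and no source used here says how the deficiency was made or in which cells it acts. Each title has 1 library, so no difference between the titles has a replicate check, no test was made, and every value below compares these libraries and not the genotypes.

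The labels contradict each other. The sample titled miR-7KD (animal 3) carries the genotype wild type, and the sample titled WT (animal 7) carries the genotype miR-7 KD. The libraries are therefore called by their titles throughout, and the genotype behind each direction is not settled. The labels also name each sample as representative of 3 animals, without saying whether RNA was pooled, and the extraction note names retinas where the tissue field says brain. Mature miR-7 was not measured in the tables analysed here, so the titles were not checked against it.

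Of the cell type markers, 8 of 8 neuronal and 6 of 6 oligodendrocyte genes differed by less than 2-fold, and none of 8 photoreceptor genes was listed. Neuronal markers summed to 730 FPKM in the miR-7KD-titled library and 734 in the WT-titled library. Within this sum Slc17a7 was lower in the miR-7KD-titled library, at 63.6 against 117.7 FPKM (-0.89 on the log2 scale). Tubb3 (178 against 145 FPKM) and Gad1 (42.2 against 34.0 FPKM) were higher there, so the near-equal sums hide differences of single genes. Of the astrocyte genes, 3 of 7 (Slc1a2, Gja1 and S100b) were lower by 2-fold or more in the miR-7KD-titled library, beside 5.58% of all genes. Aldh1l1, Aqp4 and Slc1a3 lay within 10% between the libraries, and Gfap was lower by less than 2-fold (34.2 and 48.6 FPKM). The astrocyte sum was 194 against 457 FPKM, a gap that lay mainly in Slc1a2, Gja1 and S100b. Of 6 microglial markers, 4 were higher and 2 lower in the miR-7KD-titled library, with a median log2 ratio of 0.46, and Cx3cr1 alone passed 2-fold, as lower (0.0172 against 3.03 FPKM). Of 5 endothelial markers, Cldn5 alone passed 2-fold and was listed at 0 in the WT-titled library and at 24.7 FPKM in the other. These marker levels moved between the same libraries as the carrier values below, and their part in those values was not tested. In bulk tissue, fewer cells of a type and less RNA per cell cannot be told apart.

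Carriers of ADP, ATP and phosphate were the most abundant Slc25 RNAs. Slc25a4, the ADP/ATP translocase Ant1 of heart, muscle and brain, was listed at 243 FPKM in the miR-7KD-titled library and 229 FPKM in the WT-titled library, rank 49 and 53 of all genes. It alone gave 33.4% and 32.4% of the summed FPKM of the family, which was 727 and 705. Slc25a5, the translocase Ant2, had 62.8 and 66.1 FPKM in the same order. Slc25a3, the phosphate carrier, had 63.2 and 61.0 FPKM. These 3 genes made up 50.8% and 50.4% of the family's FPKM, and the RNA level of each was nearly the same in both libraries. These shares rest on gene values, and the listed transcripts of Slc25a3 summed to more, at 184 and 180 FPKM.

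The other members spanned a wide range below these. In all, 15 of 40 members had 10 FPKM or more in both libraries, 18 stayed under 5 FPKM in both, and none was listed at 0. Slc25a35 (0.413 and 0.551 FPKM) and Slc25a53 (0.782 and 0.689 FPKM) did not reach 1 FPKM in either library and were left out of the counts, which leaves 38 members. In the plot of levels by role, most pairs of points lie close together, and the pairs set widely apart belong mainly to genes of low or middle level.

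**Figure D1:**
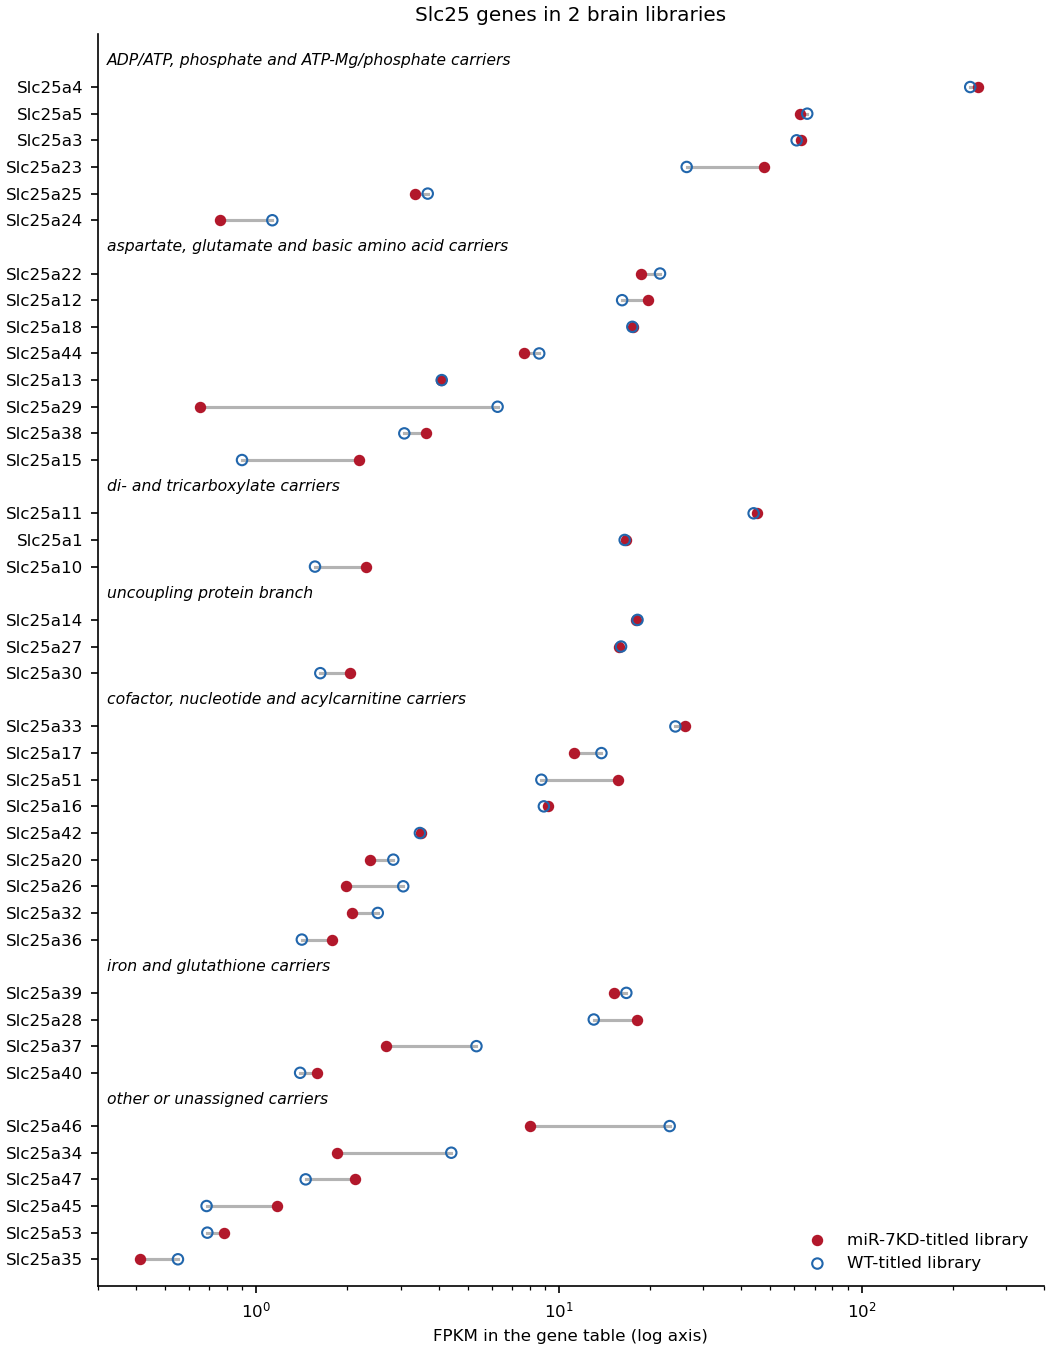
FPKM of 39 of the 40 Slc25 genes (log axis), grouped by the substrate they are known to carry, with filled points for the miR-7KD-titled library and open points for the WT-titled library, 1 value each. Slc25a4 lies highest at 243 and 229 FPKM, and the widest gap is that of Slc25a29 at 0.654 and 6.27 FPKM.

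Differences between the libraries were expressed as the log2 ratio of the miR-7KD-titled library over the WT-titled library with 0.1 FPKM added to each value, which understates differences of low genes. At a 2-fold threshold 1 of the 38 members was higher in the miR-7KD-titled library (Slc25a15), where 6.01% of all genes at 1 FPKM or more were. Lower by at least 2-fold were 3 members (Slc25a29, Slc25a46 and Slc25a34), where 5.58% of all genes were. Counting both directions, 10.5% of members and 11.6% of all genes differed by 2-fold, so the family's share was near that of the whole table. The median log2 ratio of the members was 0.02 (range -3.08 to 1.20), and that of all genes was -0.01. Of the 38 members, 21 had the higher value in the miR-7KD-titled library and 17 in the WT-titled library.

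The mature miR-7 sequences show what a miR-7 match in a carrier RNA would look like. They are given from RefSeq (GRCm38.p6), 5′ to 3′, with the seed, bases 2 to 8, in capitals. Mature miR-7a-5p comes from chr7:78888295-78888317 (plus strand) and from chr13:58392841-58392863 (minus strand), and miR-7b-5p from chr17:56243017-56243040 (plus strand).
mmu-miR-7a-5p: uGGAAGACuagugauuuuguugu
mmu-miR-7b-5p: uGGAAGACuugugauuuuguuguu
Both share the seed GGAAGAC, and its reverse complement GTCTTCC was searched on the transcribed strand of the longest annotated 3′ untranslated region of each gene.

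The letters GTCTTCC were found in 7 of 40 members (17.5%) and in 14.2% of 11883 genes at 1 FPKM or more with such a region. The members were Slc25a10, Slc25a15, Slc25a18, Slc25a23, Slc25a29, Slc25a42 and Slc25a46. The 40 members include Slc25a35 and Slc25a53, which stayed under 1 FPKM and held no match. The share of all genes leaves such low genes out, so the sets are not quite alike. The matches of Slc25a15, Slc25a29 and Slc25a23, members with higher and lower levels, are shown as examples with the match in capitals and 10 bases on either side, read from the GENCODE M21 transcripts, with the GRCm38 position of the match.
Slc25a15, chr8:22377738-22377744, minus strand: ctttgaacttGTCTTCCcttcttctat
Slc25a29, chr12:108826665-108826671, minus strand: tcctcagccaGTCTTCCtcattggcct
Slc25a23, chr17:57044227-57044233, minus strand: tctctgcaatGTCTTCCacattcccct
The match of Slc25a15 starts at base 113 of a 3′ untranslated region of 2306 bases, that of Slc25a29 at base 59 of 857, and that of Slc25a23 at base 1246 of 1768. Slc25a46 holds 1 match, at base 2589 of 3023.

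The carriers of aspartate, glutamate and basic amino acids held both extremes of the family, with 1 of 8 members higher, 1 of 8 lower and a median log2 ratio of 0.00. Among all genes 6.01% were higher and 5.58% lower by 2-fold. The role lists here and below hold 3 to 10 members at 1 FPKM or more, so a single gene is already a larger share. Slc25a29, which carries arginine, lysine and other basic amino acids, was listed at 0.654 FPKM in the miR-7KD-titled library and 6.27 FPKM in the WT-titled library. Its log2 ratio was -3.08, the lowest of the family, and its plain FPKM ratio was 9.60-fold in favour of the WT-titled library. The gene (ENSMUSG00000021265.3) lies at chr12:108825873-108835883 on the minus strand of GRCm38, has 4 exons and 1 listed transcript, and no other annotated gene overlaps it. The transcript showed the same gap, at 0.776 and 8.13 FPKM.

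Slc25a29 and Slc25a47 are neighbours, 15245 bases apart, and did not move together. Slc25a47, a carrier known mainly from liver, had 2.12 FPKM in the miR-7KD-titled library and 1.46 FPKM in the WT-titled library, a log2 ratio of 0.51. Yy1, the transcription factor gene listed on the other side of Slc25a29, had 6.33 and 4.27 FPKM. Both neighbours were thus higher, by less than 2-fold, in the library where Slc25a29 was lower.

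Slc25a15, the ornithine carrier of the urea cycle, was the only member called higher in the miR-7KD-titled library. It had 2.18 FPKM there and 0.897 FPKM in the WT-titled library, a log2 ratio of 1.20. Its single listed transcript had 3.37 and 0.925 FPKM, so the gap was wider there (1.76 on the log2 scale). The gene (ENSMUSG00000031482.9, chr8:22375551-22398597, minus strand) has 7 exons in that transcript and overlaps no other annotated gene. Both values are low, and with 1 FPKM added in place of 0.1 the call was lost.

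The carriers that handle aspartate and glutamate themselves differed little. Slc25a12 (Aralar), the aspartate/glutamate carrier of neurons, had 19.7 FPKM in the miR-7KD-titled library and 16.2 FPKM in the WT-titled library, and its paralogue Slc25a13 (citrin) had 4.07 and 4.10 FPKM. Slc25a22, a glutamate carrier, had 18.7 and 21.6 FPKM, and Slc25a18, a glutamate carrier known from astrocytes, had 17.6 and 17.5 FPKM. The astrocyte markers Aldh1l1, Aqp4 and Slc1a3 were likewise close between the libraries. The markers Slc1a2, Gja1 and S100b were lower by 2-fold or more in the miR-7KD-titled library. Slc25a18 overlaps the proton pump gene Atp6v1e1 on the opposite strand, and no source used here says whether the counting used strand. Slc25a44, a carrier of branched-chain amino acids, had 7.67 and 8.61 FPKM, and Slc25a38, a glycine carrier that feeds heme synthesis, had 3.64 and 3.08 FPKM.

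Among the carriers of unassigned or other function, 2 of 4 members at 1 FPKM or more were lower in the miR-7KD-titled library and none was higher. Of all genes, 5.58% were lower and 6.01% higher, and with 4 members a single gene is already a larger share. Slc25a46, an outer membrane protein of mitochondrial fission and fusion whose loss causes optic atrophy and neuropathy in humans, had 8.04 FPKM in the miR-7KD-titled library and 23.2 FPKM in the WT-titled library. The log2 ratio was -1.52, and the difference of 15.2 FPKM in favour of the WT-titled library was the widest fall of any member in FPKM. The gene (ENSMUSG00000024259.8) lies at chr18:31580168-31609902 on the minus strand and overlaps the protein-coding gene B930094E09Rik on the opposite strand at its start.

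Slc25a34, a carrier without an established substrate, had 1.85 FPKM in the miR-7KD-titled library and 4.41 FPKM in the WT-titled library, a log2 ratio of -1.21. It lies at chr4:141618824-141623821 on the minus strand (ENSMUSG00000040740.7) and has 5 exons. Its closest listed neighbour, Plekhm2, lies 1912 bases away and had 20.3 and 17.7 FPKM, a small difference in the other direction. Slc25a45 had 1.17 and 0.685 FPKM, a log2 ratio of 0.70 at a level near the 1 FPKM minimum.

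**Figure D2:**
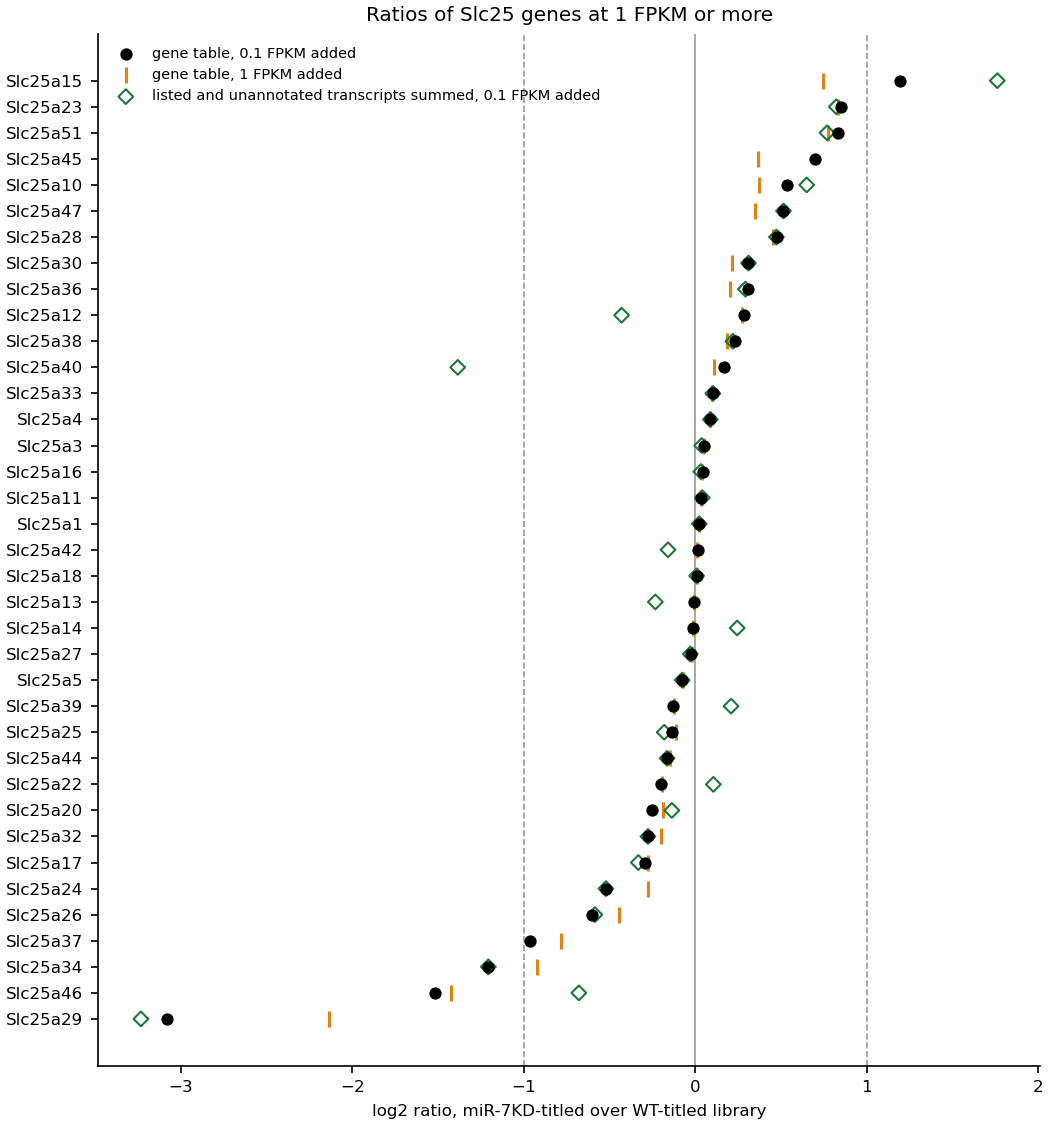
Log2 ratio of the miR-7KD-titled library over the WT-titled library for 37 of the 38 Slc25 genes at 1 FPKM or more, from the gene table with 0.1 FPKM added (black points) or 1 FPKM added (orange bars) and from the sum of listed and unannotated same-strand transcripts (green diamonds, absent where that sum did not reach 1 FPKM or no transcript was listed); dashed lines mark 2-fold. Slc25a29 keeps the lowest ratio on all 3 scales, and Slc25a40, Slc25a46 and Slc25a12 have diamonds far from their black points, with unannotated transcripts in the sums of Slc25a46 and Slc25a12.

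Just inside the threshold stood Slc25a15 and Slc25a34, and just outside it stood Slc25a37 and Slc25a23. Slc25a37, mitoferrin-1, which brings iron into mitochondria of blood-forming cells, had 2.69 FPKM in the miR-7KD-titled library and 5.34 FPKM in the WT-titled library, a log2 ratio of -0.96. Markers of red blood cells, in whose precursors this carrier is abundant, summed to 733 and 793 FPKM, and none of those 5 genes differed by 2-fold. Slc25a28, the widely expressed mitoferrin-2, went the other way at 18.2 and 13.0 FPKM (0.48 on the log2 scale). Slc25a39, a glutathione carrier, had 15.2 and 16.7 FPKM.

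Of the carriers of ADP, ATP and phosphate, 0 of 6 passed 2-fold in either direction, where 11.6% of all genes did. Slc25a23, a calcium-regulated ATP-Mg/phosphate carrier, came closest with 47.7 FPKM in the miR-7KD-titled library and 26.4 FPKM in the WT-titled library. This gap of 21.3 FPKM was the widest of all 40 members in FPKM, although its log2 ratio was 0.85. Its relatives Slc25a25 (3.34 and 3.68 FPKM) and Slc25a24 (0.757 and 1.13 FPKM) were lower in the miR-7KD-titled library, so the 3 ATP-Mg/phosphate carriers did not share a direction. Slc25a23 was thus the abundant ATP-Mg/phosphate carrier in both libraries.

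Of the carriers of dicarboxylates and tricarboxylates, 0 of 3 passed 2-fold, where 11.6% of all genes did. Slc25a11, the oxoglutarate/malate carrier and partner of Slc25a12 in the malate-aspartate shuttle, had 45.0 FPKM in the miR-7KD-titled library and 44.0 FPKM in the WT-titled library. Slc25a1, the citrate carrier that exports carbon for lipid synthesis, had 16.7 and 16.5 FPKM. Slc25a10, the dicarboxylate carrier, was low and less even at 2.31 and 1.56 FPKM.

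In the uncoupling protein branch, again 0 of 3 passed 2-fold, beside 11.6% of all genes. Slc25a14 (Ucp5) had 18.0 FPKM in the miR-7KD-titled library and 18.2 FPKM in the WT-titled library, and Slc25a27 (Ucp4) had 15.8 and 16.0 FPKM. Both are the uncoupling-related carriers known from neurons. Slc25a30 had 2.04 and 1.63 FPKM. Ucp2, a family member without an Slc25 symbol, was as even at 14.9 and 14.8 FPKM.

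Of the 10 carriers of cofactors, nucleotides and acylcarnitine, none passed 2-fold, beside 11.6% of all genes. The pyrimidine nucleotide carrier Slc25a33 was the highest of them, at 26.0 FPKM in the miR-7KD-titled library and 24.3 FPKM in the WT-titled library. Slc25a51, the carrier of NAD+ into mitochondria, had 15.7 and 8.75 FPKM, a log2 ratio of 0.83 and the widest gap of this list. Its 2 main transcripts moved together, at 9.42 and 5.15 FPKM for Slc25a51-001 and at 9.11 and 4.72 FPKM for Slc25a51-201. Slc25a26, which carries S-adenosylmethionine, went the other way with 1.98 and 3.06 FPKM (-0.60). Slc25a17, a carrier of the peroxisome, had 11.2 and 13.8 FPKM.

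Transcripts were read from a separate table of the same libraries, which lists 68 transcripts for 39 of the members. Slc25a37 had none listed there. A single transcript was listed for 27 members and several for 12. Of the 55 transcripts at 1 FPKM or more, 9 differed by 2-fold or more in either direction, where 24.3% of all transcripts did. Higher in the miR-7KD-titled library were 2 of them (Slc25a15-001 and Slc25a14-201). Lower were 7, among them the single transcripts of Slc25a29, Slc25a46 and Slc25a34, as well as Slc25a14-003, Slc25a40-001 and Slc25a39-010, the latter listed at 0 in the miR-7KD-titled library. Transcripts listed at 0 in a library numbered 5 among the 68, and no ratio is given for them.

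Gene and transcript values did not always add up. In 11 members the gene value equalled the transcript sum within 0.1% in both libraries, and in 22 and 23 of 39 members it was below the sum in the miR-7KD-titled library and the WT-titled library. Slc25a3 was the extreme, with 63.2 and 61.0 FPKM as a gene and 184 and 180 FPKM as the sum of its 3 transcripts. No source used here says how gene values were formed from transcripts. Ratios between the libraries were less affected: of 36 members with a value on both scales, 35 moved by less than 1.5-fold.

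The exception was Slc25a40, a glutathione carrier. Its gene values were 1.58 FPKM in the miR-7KD-titled library and 1.40 FPKM in the WT-titled library, a log2 ratio of 0.17. Its transcripts went the opposite way. Slc25a40-001 had 0.982 and 2.16 FPKM and Slc25a40-002 was listed at 0 and 0.571 FPKM, which gave a log2 ratio of -1.38 for their sum. The direction for this gene thus depended on which table was read.

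Slc25a14 held its gene level while 2 of its listed transcripts changed places. Transcripts of this gene that match no annotation, 20.8 and 10.8 FPKM in sum, are given below and are left out of the shares here. Slc25a14-001 was steady at 11.4 FPKM in the miR-7KD-titled library and 10.3 FPKM in the WT-titled library. Slc25a14-003 had 1.44 and 10.4 FPKM, or 8.30% and 48.5% of the listed transcripts of the gene. Slc25a14-201 had 4.48 and 0.733 FPKM, or 25.9% and 3.43%. Slc25a14-003 and Slc25a14-201 have the same coding length of 975 bases in the annotation, against 966 bases for Slc25a14-001, and their 3′ untranslated regions are 370 and 368 bases long. Such close isoforms share most of their sequence, and no source used here says how reads were divided among them.

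In Slc25a22 the split was milder. Slc25a22-002 was level at 18.3 FPKM in the miR-7KD-titled library and 18.0 FPKM in the WT-titled library, and Slc25a22-001 had 12.3 and 20.8 FPKM, or 36.7% and 49.8% of the gene's listed transcripts. In Slc25a3 the dominant Slc25a3-001 had 145 and 144 FPKM, and Slc25a3-002 had 35.2 and 29.5 FPKM. Slc25a13-001 and Slc25a13-201 were nearly equal to each other in both libraries, between 2.41 and 2.47 FPKM. The 6 transcripts of Slc25a25 ranged from 0.383 to 2.37 FPKM, with none past 2-fold.

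Another table lists transcripts assembled from the reads that match no annotated transcript. Of these, 19 overlapped 13 members on the same strand, and 8 overlapped members on the opposite strand. At 1 FPKM or more, 2-fold was passed by 6 of the 19 upwards and by 2 downwards in the miR-7KD-titled library, where 30.3% of all 10238 unannotated transcripts were higher by that much and 24.1% lower. Some were near or above the listed transcript of the same gene, so they bear on the ratios above.

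Slc25a46 had 2 such entries, and both went against the listed transcript. They had 3.08 FPKM in the miR-7KD-titled library against 1.29 FPKM in the WT-titled library, and 4.51 against 0.543 FPKM. With them added, the locus had 15.6 FPKM in the miR-7KD-titled library and 25.1 FPKM in the WT-titled library, and its log2 ratio shrank from -1.52 to -0.68. The call of Slc25a46 as lower therefore held for the annotated transcript and not for the sum over the locus.

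Slc25a12 and Slc25a22 changed direction in the same way. The unannotated entry of Slc25a12, with 19 exons, had 10.3 FPKM in the miR-7KD-titled library and 25.9 FPKM in the WT-titled library, opposite to the listed transcript at 22.6 and 18.5 FPKM. Together they gave 32.9 and 44.4 FPKM, a log2 ratio of -0.43 in place of 0.28. For Slc25a22 the unannotated entry had 12.3 and 0.732 FPKM, and the total of 45.8 and 42.6 FPKM gave 0.11 in place of -0.20. Neither gene passed 2-fold on any of these scales.

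Other members varied in how their unannotated entries compared with the listed transcripts. Slc25a28 had an entry of 12.8 FPKM in the miR-7KD-titled library and 9.29 FPKM in the WT-titled library, the same direction as its gene. The 2 entries of Slc25a14 had 11.1 and 6.43 FPKM, and 9.67 and 4.37 FPKM. Both went against the sum of its listed transcripts, which was 17.3 and 21.4 FPKM (-0.30 on the log2 scale). With the entries added, the locus of Slc25a14 had 38.1 and 32.2 FPKM (0.24). The 3 entries of Slc25a27 had 4.70 and 4.80 FPKM, 1.25 and 2.72 FPKM, and 1.36 FPKM against a listed 0. Slc25a29, Slc25a15 and Slc25a34 had no unannotated entry, so their calls were the same with unannotated transcripts counted in.

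**Figure D3:**
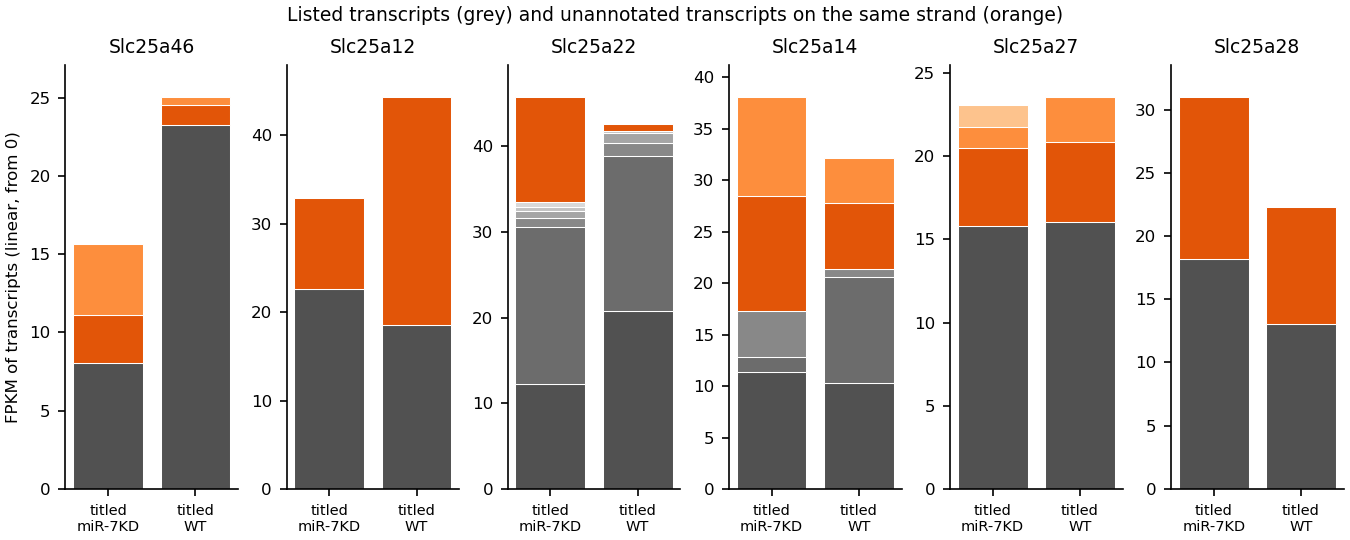
Stacked FPKM (linear axes from 0, scaled per gene) of the listed transcripts (grey shades) and unannotated same-strand transcripts (orange shades) of 6 Slc25 genes in each library. In Slc25a46 the orange part is larger in the miR-7KD-titled library (7.58 against 1.83 FPKM) while the grey part is smaller (8.04 against 23.2 FPKM).

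In FPKM, though not in log2 ratio, the gaps of opposite-strand entries were widest at Slc25a53, whose locus overlaps Zcchc18. These entries had 1.03 FPKM in the miR-7KD-titled library against 14.5 FPKM in the WT-titled library, and 6.52 against 46.9 FPKM. The gene value of Zcchc18 went the other way, at 17.5 and 13.4 FPKM. Slc25a53 itself stayed under 1 FPKM. At Slc25a26 an opposite-strand entry that runs along Lrig1 was listed at 0 and 2.77 FPKM, and at Slc25a23 one of 1 exon was listed at 1.85 and 0 FPKM.

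Members whose 3′ untranslated region holds the GTCTTCC match printed above went in both directions. Slc25a15 and Slc25a23 were higher in the miR-7KD-titled library (log2 ratios 1.20 and 0.85), and Slc25a29 and Slc25a46 were lower (-3.08 and -1.52). Slc25a18 and Slc25a42, a carrier of coenzyme A, were level, the latter at 3.51 and 3.47 FPKM, and Slc25a10, with 2 matches, had a ratio of 0.53. Slc25a34, the remaining member past 2-fold, holds no match. A match is a description of letters and not a measured site of miR-7.

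The members past 2-fold had few exons. All 4 fall among the 18 members whose listed transcripts have 4 to 8 exons at most, a class in which 14.3% of all genes differed by 2-fold. None of the 16 members with 9 to 12 exons did, where 7.60% of all genes did, nor did the 2 members with 13 or more, where 3.34% did. The single member with 1 to 3 exons did not either, in a class with 34.6% of all genes past 2-fold. Over the whole table, the share of genes past 2-fold thus fell with the number of exons, and its part in the carrier values was not tested.

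Other nuclear genes of mitochondria were set beside the carriers. Of the members, 14 of 38 (36.8%) differed by less than 10%, against 40.1% of all genes. The same share was 61.1% for 90 genes of the respiratory chain and ATP synthase and 46.1% for 76 genes of mitochondrial ribosomal proteins. The median size of the log2 ratio was 0.24 for the carriers, 0.11 for the respiratory chain and 0.14 for the ribosomal proteins, and 0.19 for all genes. All 3 sets had medians close to 0, at 0.02, 0.05 and 0.01. Respiratory chain genes past 2-fold were 3 higher and 1 lower (4.44% of the set), and ribosomal protein genes 4 higher and 1 lower (6.58%). Both shares were below those of the carriers (10.5%) and of all genes (11.6%). The carriers and these sets differ in level, their exon numbers were not compared, and the difference between them was not tested.

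**Figure D4:**
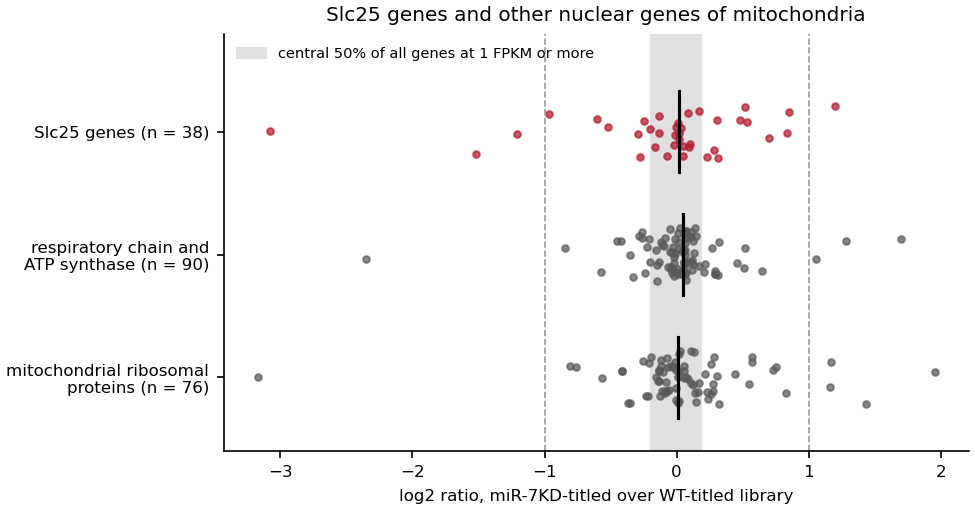
Log2 ratio of each gene (points, spread vertically for clarity) for 38 Slc25 genes, 90 respiratory chain and ATP synthase genes and 76 mitochondrial ribosomal protein genes, with the median as a black bar, 2-fold as dashed lines and the central 50% of all genes in grey. The carrier points lie around a median of 0.02, with fewer of them close to 0 than among the respiratory chain genes.

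Genes that work with the carriers were read from 7 fixed lists. Their counts stand beside 6.01% of all genes higher and 5.58% lower, and with 3 to 7 genes a list a single gene is already a larger share. In the malate-aspartate shuttle, 1 of 4 enzymes was higher and none was lower. Got2, the mitochondrial aspartate aminotransferase, had 101 FPKM in the miR-7KD-titled library and 48.3 FPKM in the WT-titled library (1.07 on the log2 scale). Mdh1, Mdh2 and Got1 lay within 10% between the libraries, as did the carrier Slc25a11. Slc25a12, also a carrier of the shuttle, did not, with gene values of 19.7 and 16.2 FPKM. Its listed and unannotated transcripts together went the other way, at 32.9 and 44.4 FPKM. Of 5 outer membrane channels and pyruvate carrier subunits none passed 2-fold, with Vdac1 at 156 and 154 FPKM and Vdac2 at 40.4 and 25.1 FPKM.

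The import machinery that inserts carriers into the inner membrane held 1 of 7 genes that was higher and 2 that were lower, beside 6.01% and 5.58% of all genes. Timm22, the channel of the carrier translocase, had 7.34 FPKM in the miR-7KD-titled library and 1.84 FPKM in the WT-titled library (1.94). Timm8a1 and Timm9, small chaperones that guide carrier precursors across the intermembrane space, were lower. Timm8a1 had 1.14 and 7.68 FPKM (-2.65) and Timm9 had 10.1 and 22.6 FPKM (-1.15). Timm10, the partner of Timm9, was lower by less than 2-fold, at 6.54 and 7.86 FPKM (-0.26). Timm13 was likewise lower by less than 2-fold, at 18.5 and 34.1 FPKM (-0.87). So was Timm10b in its entry above 1 FPKM, at 4.41 and 4.79 FPKM (-0.12). Only Timm22 and 1810026J23Rik (24.8 and 23.2 FPKM) were higher among the import genes at 1 FPKM or more.

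Of 7 genes of the calcium uniporter, 2 were higher and none was lower, again beside 6.01% and 5.58% of all genes. Smdt1, its small regulatory subunit, had 62.6 FPKM in the miR-7KD-titled library and 23.3 FPKM in the WT-titled library (1.42). Ccdc109b, the dominant-negative subunit now called Mcub, had 1.42 and 0.606 FPKM. The pore gene Mcu was level at 5.60 and 5.59 FPKM. None of 4 carnitine shuttle enzymes at 1 FPKM or more, none of 7 regulators of mitochondrial biogenesis and none of the 3 relatives Ucp2, Mtch1 and Mtch2 passed 2-fold. Ppargc1a, the coactivator that drives mitochondrial gene expression, had 7.22 and 7.95 FPKM, and Mtch1 had 83.7 and 65.7 FPKM.

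**Figure D5:**
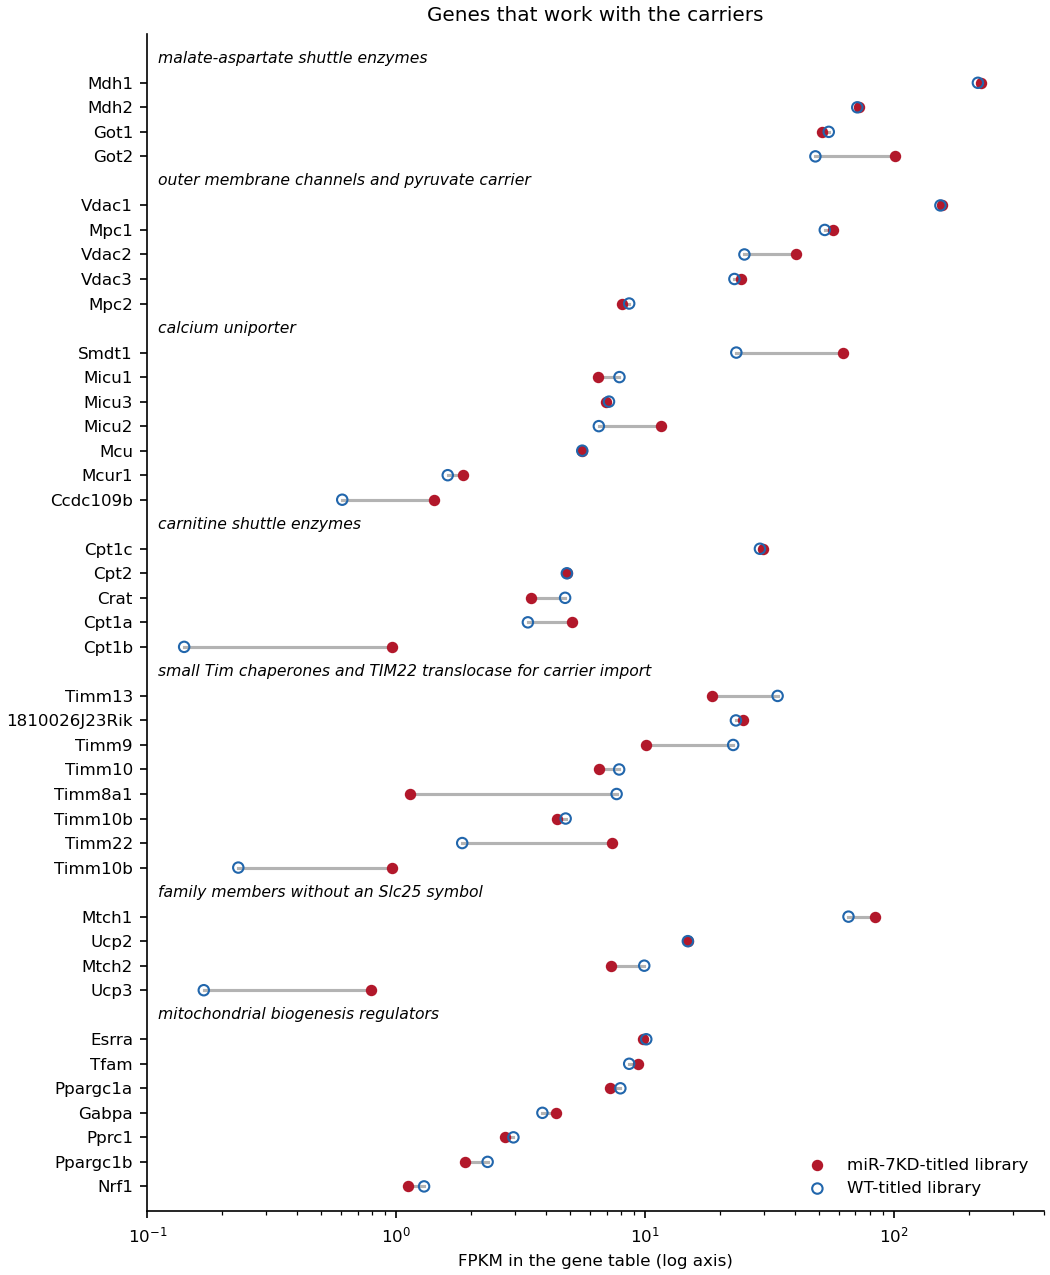
FPKM (log axis) of genes that work with the carriers, by list, with filled points for the miR-7KD-titled library and open points for the WT-titled library; the 2 entries of Timm10b are shown apart. Timm8a1 (1.14 and 7.68 FPKM) and Timm22 (7.34 and 1.84 FPKM) lie in opposite directions within the import list.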

How the data were processed

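Brain RNA of 2 libraries was analysed from tables of FPKM that the authors deposited for protein-coding genes (13381 entries), their transcripts (23374) and unannotated transcripts (10238). Bowtie 0.12.2 and mm8 are named in the submitters' processing notes; positions are those of GRCm38, and no source used here names the program behind the FPKM values. Depth is unknown, so no interval is given. The methods name a cDNA chip array for this comparison, whereas the values are FPKM. The lowest maximum was 0.501 FPKM in the gene table. The table of unannotated genes was not used here.

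Columns were matched to samples by animal number, and 0 columns stayed unmapped. Log2 ratios used a pseudocount of 0.1 FPKM, a minimum of 1 FPKM in at least 1 library and a 2-fold threshold. Alternatives were a pseudocount of 0.01 or 1, rescaling to a median of 0, transcript sums, unannotated transcripts added, no minimum or 5 FPKM, and 1.5- and 3-fold thresholds. Members and lists were chosen with earlier results of these data known. Every member could be named. Outside the family, genes at least 2-fold different and the highest of each list were named. Timm10, Timm10b, Timm13, 1810026J23Rik, Mcu, Ppargc1a and the neighbouring and overlapping genes were chosen later. The ratio code was tested on simulated data. Exons and 3′ untranslated regions came from GENCODE M21, and all 68 listed transcripts matched by identifier. Protein features were not computed, and 1 member is counted but not reported here by name. Python 3.11.15, numpy 2.4.6, pandas 2.3.3 and matplotlib 3.10.9 were used.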

Additional observations from a re-analysis of the deposited data

How the results depend on the processing

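With 1 library per title, leaving out a replicate was not possible. No paired analysis was possible because the titles share no replicate number and the results come from no test. Of Slc25 genes at least 2-fold higher (1), the count was 0 with 1 FPKM added, 0 with a minimum of 5 FPKM, 0 at a 3-fold threshold and 4 at a 1.5-fold threshold (Slc25a15, Slc25a23, Slc25a45 and Slc25a51). Of those at least 2-fold lower (3), it was 5 at 1.5-fold, with Slc25a26 and Slc25a37 added, and 1 at 3-fold (Slc25a29). Within 1.5 times of the main count, it was 2 with 1 FPKM added (Slc25a34 lost), 2 with a minimum of 5 FPKM (Slc25a34 lost), 2 with unannotated transcripts added (Slc25a46 lost) and 4 by transcript sums (Slc25a40 gained). Summing listed and unannotated transcripts, an alternative chosen after seeing the data, gave 3: Slc25a29, Slc25a34 and Slc25a40. Shares of all genes are given here at the main setting only. The counts at other settings therefore have no such share beside them and are not read as a trait of the family. The median log2 ratio ranged from 0.00 to 0.03 over these alternatives. Slc25a29 stayed the lowest member, at -2.14 with 1 FPKM added. None of the members called at the main setting (Slc25a15, Slc25a29, Slc25a34 and Slc25a46) changed sign under the alternatives run. Some other members did. Slc25a40 went from 0.17 to -1.38 by transcript sums. With unannotated transcripts added, Slc25a12 went from 0.28 to -0.48 and Slc25a22 from -0.20 to 0.48. Depth is unknown, so counting error of low genes such as Slc25a15 and Slc25a34 cannot be given.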
